A study of Drosophila melanogaster with 16 samples.

Results

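The regions described here are the stretches of H3K9me3 listed on the assembled heterochromatin scaffolds of the Drosophila melanogaster genome, build dm3. Members were all regions whose chromosome name ends in Het, in each of the 2 region lists of the study, 1 list for each driver. The tj list held 705 such regions among 5144, and the nos list held 726 among 5421. Ovaries of flies kept at 25 degrees and aged 3 to 5 days were compared after RNA interference against piwi and, as the control, after interference against white, an eye colour gene. The tj libraries were H3K9me3 ChIP-seq of ovaries with Tj-GAL4 driven knockdown of piwi and with Tj-GAL4 driven knockdown of white. The nos libraries were the same with nos-GAL4 driven knockdown of piwi and of white. Each library was made from chromatin of 50 ovaries and each of these 4 conditions had 1 library, so no difference below has a replicate check and none was tested. Tj-GAL4 acts in somatic follicle cells and nos-GAL4 in germline cells, while the chromatin came from whole ovaries. The RNA levels of piwi and white, and markers of the ovarian cell types, were not analysed here. A region that loses the mark in a minority of cells and one that loses part of it in all cells cannot be told apart, and cells in which the driver is silent keep any value closer to the control by an unknown amount.

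H3K9me3, trimethylation of lysine 9 of histone H3, is the histone mark of constitutive heterochromatin and is bound by the protein HP1. In flies the DNA around the centromeres is packed in such chromatin and consists mostly of transposon remnants and satellite repeats with few genes. Piwi is a nuclear Argonaute protein of the ovary that carries piRNAs, small RNAs which match transposon transcripts, and it is known for directing H3K9me3 to transposon copies. In build dm3 the parts of pericentromeric DNA that could be assembled stand apart from the chromosome arms as the scaffolds 2LHet, 2RHet, 3LHet, 3RHet, XHet and YHet, named after the arm next to them. Chromosome coordinates below are of build dm3 and counted from 1. Gene and repeat annotation and the sequence of that build were not used here, so the regions are given by position, length and read density alone.

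The region lists gave reads-per-million (RPM) in both libraries of a driver. All values were whole numbers of reads for a library of 1435888 reads in tj piwi and 1451863 reads in tj white, and of 987157 reads in nos piwi and 1385901 reads in nos white. These totals were recovered from the RPM as the smallest that fit. The regions of all chromosomes took 53.0% of the tj piwi reads, 54.8% of the tj white reads, 57.8% of the nos piwi reads and 53.7% of the nos white reads. By these totals the nos piwi library was the shallowest and had the largest share of its reads in regions. The change of a region is the ratio of RPM in piwi over white knockdown, with an exact Clopper-Pearson 95% interval from the reads, which covers counting error only. Ratios are summarised for regions with at least 50 reads over both libraries of a driver, 647 of the 705 under tj and 619 of the 726 under nos. The lists hold no input reads per region, so a change in the mark and a change in the amount of DNA cannot be told apart.

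Most Het regions lay on 3 scaffolds and few on the other 3. The lengths of the scaffolds were not used, so these numbers do not give the share of a scaffold that is covered. In the tj list 2RHet had 232 regions that covered 1131 kb, 3LHet had 229 over 1027.5 kb and 3RHet had 200 over 854.5 kb. In the same list 2LHet had 22 regions over 88.5 kb, XHet had 20 over 85 kb, and YHet had 2 of 0.5 kb each. In the nos list the numbers were 236 on 2RHet, 220 on 3LHet, 222 on 3RHet, 26 on 2LHet, 20 on XHet and 2 on YHet. The median length was 3 kb in both lists, against 2 kb in the tj list and 1.5 kb in the nos list outside the Het scaffolds. Flies with ovaries are females and carry no Y chromosome, yet the 2 YHet regions had 46.7 RPM in tj piwi and 47.5 RPM in tj white, and 60.8 RPM in nos piwi and 47.6 RPM in nos white.

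The density of reads in a region, in RPM per kb, sets its reads against its length. Without input reads, and with the counted reads not stated, density does not separate the strength of the mark from the amount of DNA or from mapping. In the control libraries the median density of Het regions was 25.8 RPM per kb in tj white and 25.8 RPM per kb in nos white, against 19.8 and 20.2 RPM per kb for regions of the main chromosome arms (2L, 2R, 3L, 3R and X). It was 27.6 and 27.4 RPM per kb on the unplaced scaffolds U and Uextra, and 27.0 and 25.5 on chromosome 4, so these classes had about the same read density as the Het scaffolds. XHet had the lowest read density of the 5 scaffolds with more than 2 regions when its reads are divided by its covered length, with 22.4 RPM per kb in tj white and 20.8 in nos white. The same measure was 39.0 and 38.8 RPM per kb on 2RHet, 37.5 and 37.3 on 3LHet, 37.0 and 37.6 on 2LHet and 30.9 and 31.0 on 3RHet, so both control libraries gave nearly the same density on each of these scaffolds. Above 1 kb, longer Het regions were also denser. In tj white the median was 18.8 RPM per kb for regions over 1 to 2 kb and 39.2 for those over 10 kb, and in nos white it was 20.8 and 41.1. Regions up to 1 kb had medians of 24.1 RPM per kb in tj white and 29.6 in nos white, above those over 1 to 2 kb. Across regions the Spearman rho between length and mean density was 0.36 in the tj list (n = 647) and 0.31 in the nos list (n = 619). This is a description, since the sources used here do not state how regions were called and the calling can link length and density.

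Under the tj driver, H3K9me3 on the Het scaffolds as a whole was close to the control, and the direction of the small difference turned with the scaling. Het regions took 11.4% of the reads of tj piwi and 11.4% of those of tj white, and the ratio of their summed RPM was 0.996 (95% counting interval 0.989 to 1.003), which turned to 1.04 relative to the regions outside the Het scaffolds and to 1.05 relative to the main chromosome arms. The median ratio of the 647 regions was 1.004, with quartiles of 0.858 and 1.15. Of these, 326 (50.4%) lay above 1, where 47.3% of all listed regions did. The median over all 4387 regions of the tj list with the same number of reads was 0.983.

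Few Het regions differed by as much as 2-fold under tj. At least 2-fold higher RPM in tj piwi was seen for 8 of 647 (1.24%), where 5.24% of all regions passed that size. At least 2-fold lower RPM was seen for 8 of 647, where 7.04% of all regions did. The counting interval lay above 1 for 81 Het regions, against 14.8% of all regions, and below 1 for 92, against 20.0% of all. In shares these are 12.5% and 14.2% of the Het regions. After centring on the median region of the main arms, 11 Het regions were 2-fold higher and 6 lower, and intervals lay above 1 for 118 and below 1 for 71. The shares of all regions given above are without this centring, so the centred counts have no matching share beside them. In the authors' deposited table, gains in tj piwi were marked for 143 of the 705 regions, which had an adjusted p-value below 0.05. This is 20.3%, beside 22.8% of all regions. That p-value was 1 for every region with a fold below 1, so it marks gains alone.

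The scaffolds differed under tj. XHet was lowest. Its 20 regions summed to 1515 RPM in tj piwi and 1908 RPM in tj white, a ratio of 0.794 (0.750 to 0.840), or 0.840 relative to the main arms. Of its 19 regions with enough reads, 2 had a ratio above 1, and the interval of 11 lay below 1 and of 0 above. Some main arms were also low under tj, with summed ratios of 0.878 (0.870 to 0.885) on X and 0.841 on 3R. The summed ratio was 0.946 on 3L, 0.9998 on 2R and 1.006 on 2L. The X arm, next to XHet, was thus low as well, though less so than XHet, and their difference was not tested. On 2RHet the ratio of summed RPM was 0.963 (0.952 to 0.974), which turned to 1.002 relative to the regions outside the Het scaffolds and 1.02 relative to the main arms. It was 1.02 (1.002 to 1.03) on 3RHet, 1.02 (1.01 to 1.03) on 3LHet and 1.09 (1.05 to 1.14) on 2LHet. On 2LHet the median region was at 0.974, near the 0.979 of the median region outside the Het scaffolds, while the summed ratio was above 1. The ratio on YHet was 0.982 with an interval of 0.691 to 1.39, and it turned to 1.02 and 1.04 under the same 2 scalings. Its 2 regions had ratios of 0.708 and 1.703, so their median, 1.21, lay above 1 while their summed ratio did not.

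**Figure D1:**
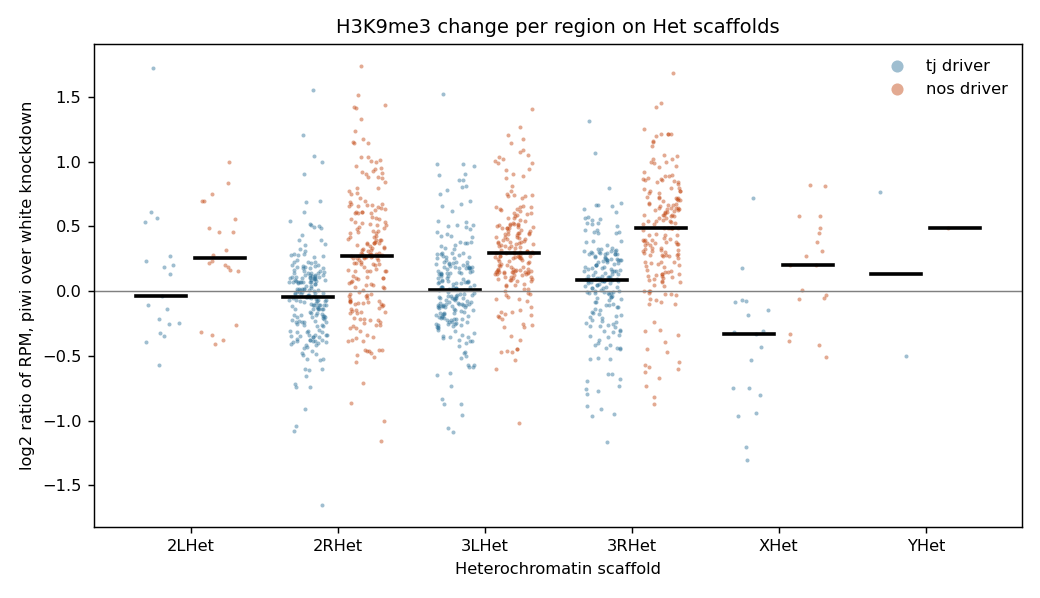
Each point is 1 region with at least 50 reads over both libraries, placed by its log2 ratio of RPM in piwi over white knockdown (vertical axis) and its scaffold (horizontal axis), with tj on the left and nos on the right of each scaffold, and black bars mark medians. The tj medians lie near 0, on a side that turns with the scaling for some scaffolds, except on XHet (ratio 0.797) and on YHet, which has only 2 tj points and 1 nos point, and the nos medians all lie above 0.

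Among individual regions under tj, those farthest from the control were 1 to 11.5 kb long. The largest ratio among the 397 Het regions that reached 100 reads in 1 of their libraries was that of chr2RHet:2573001-2576500, a region of 3.5 kb with 141 RPM in tj piwi and 70.3 RPM in tj white, a ratio of 2.002 (1.57 to 2.57). Next came chr3LHet:988001-991000 with 95.4 RPM in tj piwi and 48.9 RPM in tj white (1.95, 1.45 to 2.64). The regions chr3LHet:502001-503000, chr2RHet:2911001-2920000 and chr3RHet:1201501-1208000 followed at 1.81, 1.62 and 1.603. All 5 had higher RPM in piwi knockdown under the nos driver too, where 79.5% of the Het regions with enough reads lay above 1. The overlapping nos regions had ratios of 2.52, 2.14, 1.93, 1.96 and 1.53 in the same order.

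Among the same 397 regions, the lowest ratio under tj was on XHet. The region chrXHet:7501-13000, of 5.5 kb, had 72.4 RPM in tj piwi and 167 RPM in tj white, a ratio of 0.435 (0.342 to 0.549). Under nos the overlapping region, chrXHet:6501-13000, had 149 RPM in nos piwi and 148 RPM in nos white, a ratio of 1.01 (0.809 to 1.25). On 3RHet the region chr3RHet:1636501-1638500 had 36.2 RPM in tj piwi and 81.3 RPM in tj white (0.446, 0.315 to 0.623). Its neighbour chr3RHet:1629501-1631500 was at 0.586 under tj, and under nos these same stretches were at 0.673 and 0.546. Near the end of the listed part of 3RHet, chr3RHet:2502501-2514000 had 133 RPM in tj piwi and 257 RPM in tj white, a ratio of 0.518 (0.433 to 0.618). The remaining region of the lowest 5 was chr3LHet:2540001-2541000 at 0.548 (0.399 to 0.747).

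The Het region with most reads differed little between the knockdowns under tj. It is chr2RHet:1285001-1312000, 27 kb long, with the same bounds in both lists. It had 2768 RPM in tj piwi and 2601 RPM in tj white, a ratio of 1.06 (1.02 to 1.11), and 3392 RPM in nos piwi and 2781 RPM in nos white, a ratio of 1.22 (1.16 to 1.28). Its density was 103 RPM per kb in tj piwi and 96.4 in tj white, and 126 in nos piwi and 103 in nos white. The next most covered under tj, chr3RHet:1954501-1982000, was at 0.994 (0.937 to 1.05) with 1550 RPM in tj piwi and 1560 RPM in tj white.

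**Figure D2:**
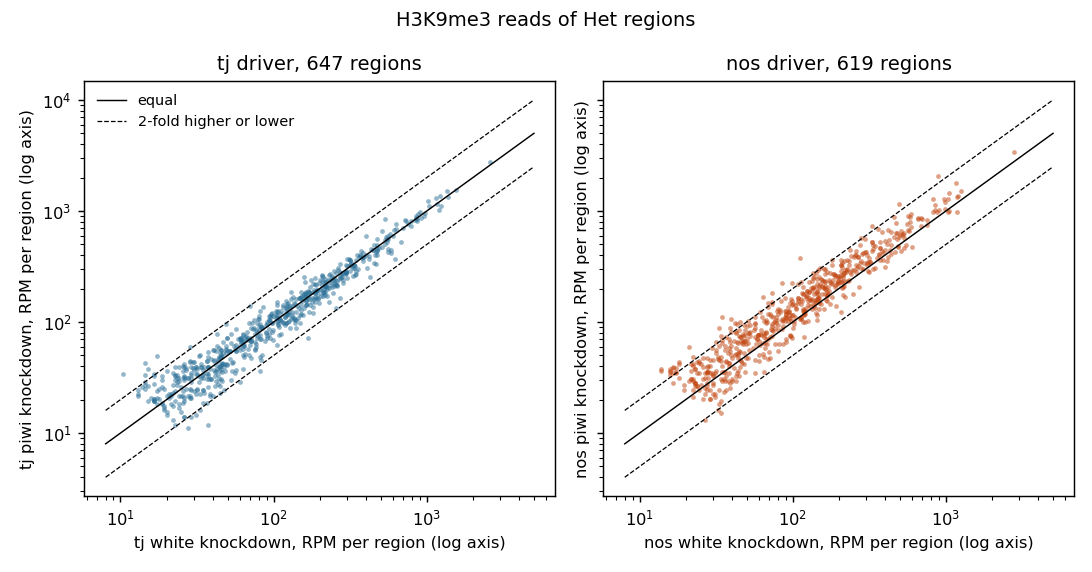
RPM per region in white knockdown (horizontal) and piwi knockdown (vertical), both on log axes, for the 647 tj and 619 nos Het regions with at least 50 reads. The tj points are spread around the line of equal values, and most nos points lie above it, with 44 past the upper 2-fold line and 3 past the lower.

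Under the nos driver, a larger share of the H3K9me3 reads lay on the Het scaffolds in piwi knockdown ovaries than in the control. Het regions took 14.0% of the reads of nos piwi and 10.99% of those of nos white, a ratio of summed RPM of 1.27 (95% counting interval 1.26 to 1.28). The mean density over the covered length was 45.3 RPM per kb in nos piwi and 35.6 RPM per kb in nos white, over 3086 kb. The median ratio of the 619 regions was 1.25 with quartiles of 1.06 and 1.53, beside a median of 1.11 over all 3965 regions of the nos list. Of the 619, 492 (79.5%) lay above 1, where 62.0% of all regions did. The nos piwi library was the shallowest of the 4 and had a larger share of its reads in regions than its control, and the part of these in the higher Het values was not tested.

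Higher values under nos were widespread, and few reached 2-fold. At least 2-fold higher RPM in nos piwi was seen for 44 of 619 regions (7.11%), close to the 6.41% of all regions. At least 2-fold lower RPM was seen for 3 (0.485%), where 9.96% of all regions were that low. All 44 had a counting interval above 1. The interval lay above 1 for 298 Het regions (48.1%), against 29.2% of all regions, and below 1 for 27 (4.36%), against 16.5% of all. The regions outside the Het scaffolds had a median ratio of 1.08 themselves, a shift of 0.12 on the log2 scale. Relative to them, 72.2% of the Het regions lay above 1, 28 reached 2-fold up and 3 reached 2-fold down, and intervals lay above 1 for 234 and below 1 for 53. The shares of all regions given above are without this centring, so these centred counts have no matching share beside them. In the authors' deposited table, gains in nos piwi were marked by an adjusted p-value below 0.05 for 405 of the 726 Het regions. This is 55.8%, beside 37.3% of all regions.

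Every scaffold had a summed ratio above 1 under nos, also relative to the regions outside the Het scaffolds or to the main arms, and the order differed from that under tj. On 3RHet the regions summed to 36355 RPM in nos piwi and 26508 RPM in nos white, a ratio of 1.37 (1.35 to 1.39). The ratio was 1.297 (1.24 to 1.36) on 2LHet, 1.26 (1.24 to 1.28) on 3LHet, 1.22 (1.21 to 1.24) on 2RHet and 1.11 (1.05 to 1.18) on XHet. The interval of 2LHet overlaps those of its neighbours in that order, 3LHet and 3RHet. YHet had 1.28 with an interval of 0.884 to 1.84, which counting error alone leaves on both sides of 1. Of the 183 regions on 3RHet with enough reads, 107 had an interval above 1 and 9 below, and on XHet 4 of 19 lay above and 1 below.

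The 5 largest nos ratios among the 384 regions that reached 100 reads in 1 of their libraries were all on 2RHet and 3RHet. The region chr2RHet:2271501-2277000, of 5.5 kb, had 374 RPM in nos piwi and 112 RPM in nos white, a ratio of 3.34 (2.76 to 4.06). Within 100 kb of it on either side lay chr2RHet:2214501-2217500 with 169 RPM in nos piwi and 63.5 RPM in nos white (2.66, 2.05 to 3.49), chr2RHet:2300001-2302500 with 107 and 39.7 RPM in the same order (2.71, 1.94 to 3.82) and chr2RHet:2360501-2363000 with 226 and 84.4 RPM (2.68, 2.13 to 3.38). On 3RHet, chr3RHet:1403001-1406500 had 111 RPM in nos piwi and 34.6 RPM in nos white, a ratio of 3.22 (2.27 to 4.62).

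These stretches were near the control under tj in most cases. The tj regions that overlap the 4 on 2RHet had ratios of 1.46 (1.18 to 1.804) for the highest and of 1.07, 1.05 and 0.942 for the other three in the order given, with intervals on both sides of 1. The tj region over the 3RHet stretch had 43.9 RPM in tj piwi and 28.2 RPM in tj white (1.55, 1.03 to 2.36).

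A long region on 3RHet was also higher under nos. It was chr3RHet:593501-616000, 22.5 kb long and the longest of that scaffold in the nos list, with 2058 RPM in nos piwi and 887 RPM in nos white, a ratio of 2.32 (2.16 to 2.49). Its density was 91.5 RPM per kb in nos piwi and 39.4 in nos white. In the tj list the same stretch was split over 4 regions, and the one with most overlap, chr3RHet:607501-616000, had 389 RPM in tj piwi and 364 RPM in tj white, a ratio of 1.07 (0.947 to 1.21). The other three had higher ratios, of 1.15 (0.992 to 1.34), 1.26 (0.962 to 1.64) and 2.91 (1.26 to 7.52), the last with 23 reads in tj piwi and 8 in tj white. The longest region of 3LHet, chr3LHet:221501-252500 with 31 kb, had 1780 RPM in nos piwi and 1168 RPM in nos white (1.52, 1.42 to 1.63). Its counterpart under tj, 29.5 kb long, was at 1.13 (1.06 to 1.21). The longest region of 2LHet, chr2LHet:164501-178500, was at 1.14 (1.02 to 1.26) under nos and 1.098 (1.002 to 1.203) under tj. That of XHet under nos, chrXHet:19501-31000, was lower in piwi knockdown, with 209 RPM in nos piwi and 272 RPM in nos white (0.767, 0.644 to 0.911). Of the 2 tj regions over it, the one with most overlap, chrXHet:21501-32000, was lower too, at 0.807 (0.691 to 0.941).

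Of the 27 Het regions with an interval below 1 under nos, 14 were on 2RHet, 9 on 3RHet, 3 on 3LHet and 1 on XHet, and the 3 regions at least 2-fold lower were on 2RHet (2) and 3LHet (1). Among the 384 that reached 100 reads in 1 library, the 3 smallest ratios were all at the far end of 3RHet, those of chr3RHet:2477001-2483000 (124 RPM in nos piwi and 205 RPM in nos white, 0.603), chr3RHet:2494001-2497000 (0.629) and chr3RHet:2503001-2507000 (0.683). The upper bounds of their intervals were 0.748, 0.834 and 0.954. The tj regions over these stretches had ratios of 0.602 (0.528 to 0.686), 0.804 (0.640 to 1.01) and 0.518 (0.433 to 0.618). These 3 stretches thus had ratios below 1 under both drivers, and the tj interval of the second includes 1. The remaining 2 of the lowest 5 were chr2RHet:86501-93000 at 0.712 under nos and 0.608 under tj, and chr3LHet:184001-188500 at 0.722 under nos and 0.776 under tj.

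Neighbouring regions along a scaffold had somewhat similar ratios, more so under nos than under tj. Between each Het region and the next one on its scaffold, the log2 ratios had a Spearman rho of 0.35 under nos (n = 613 pairs) and 0.22 under tj (n = 641 pairs). Neighbours share a library pair and can share repeats, and the values are a description. Windows of 500 kb, a size chosen after the values were seen, were used to describe where ratios were high or low. On 2RHet the window from 2000 to 2500 kb had 6321 RPM in nos piwi and 3472 RPM in nos white over 19 regions, a ratio of 1.82 (1.75 to 1.89), and the window before it was at 1.39 (1.35 to 1.42). Under tj the same windows were at 1.02 (0.981 to 1.07) and 0.965 (0.940 to 0.990).

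On 3RHet the windows from 0 to 1500 kb had nos ratios of 1.44, 1.75 and 1.55, and those from 1500 to 2500 kb had 1.16 and 1.23. The tj ratios of these 5 windows ran from 0.956 to 1.099. The 4 nos regions beyond 2500 kb summed to 0.778 (0.659 to 0.916) and the 2 tj regions there to 0.673 (0.584 to 0.774). The median of the 2 tj ratios was 0.814. The tj region chr3RHet:2502501-2514000 was at 0.518, so the other tj region lay above 1. On 3LHet the nos ratios of the 5 windows up to 2500 kb were even, from 1.19 to 1.35. The start of 2RHet, from 0 to 500 kb, was the only window with 20 or more regions and a nos ratio below 1, at 0.954 (0.929 to 0.979) over 53 regions. It was also the lowest such window of 2RHet, 3LHet and 3RHet under tj, at 0.838 (0.819 to 0.858) over 52 regions, where tj piwi had 9146 RPM and tj white 10912 RPM. Relative to the main arms this window was at 0.983 under nos and 0.887 under tj, and the 3RHet end was at 0.802 under nos and 0.712 under tj, all still below 1.

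**Figure D3:**
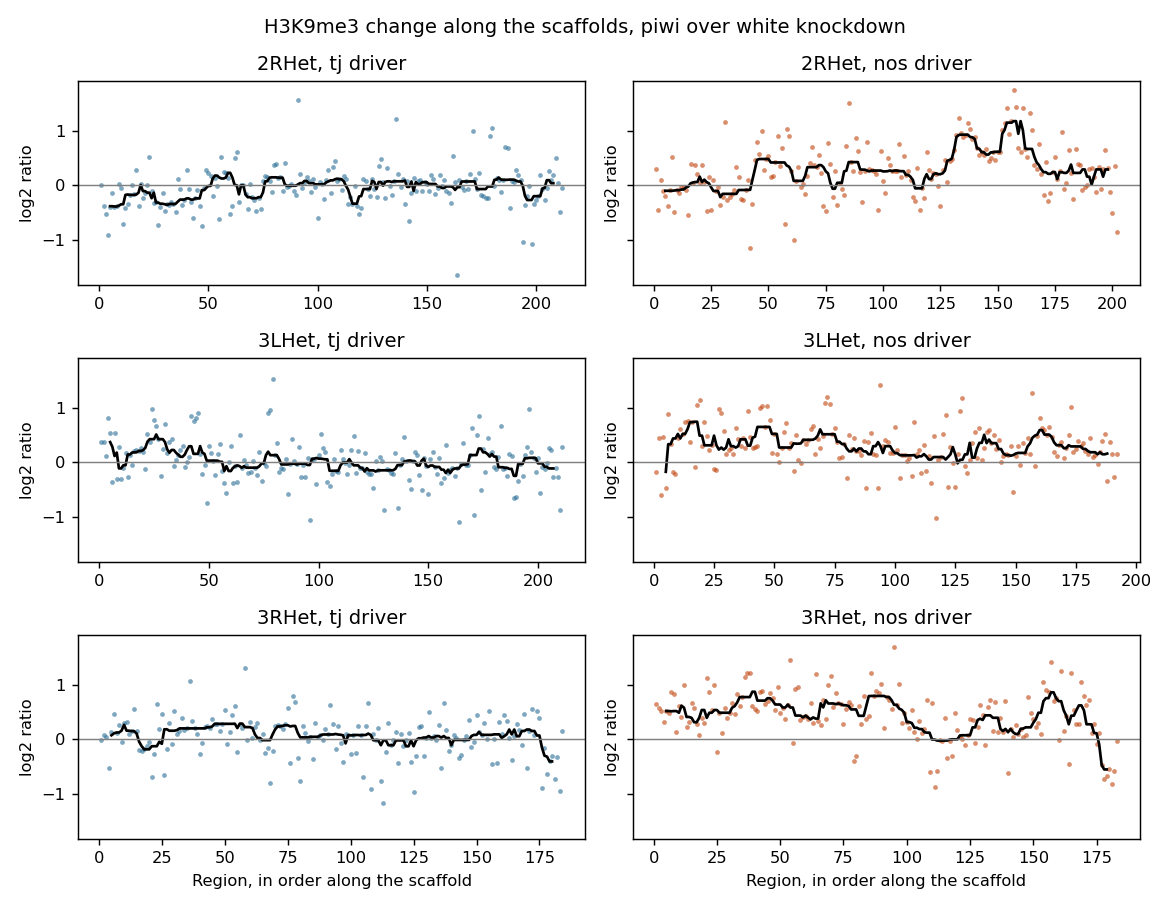
Log2 ratio of RPM in piwi over white knockdown (vertical axis) of each region with at least 50 reads, in order along 2RHet, 3LHet and 3RHet (horizontal axis), with tj on the left and nos on the right, and black lines for the running median of 9 regions. Under nos the line rises late on 2RHet and is high over the early part of 3RHet. The line needs 9 regions and is not drawn over the first and last few regions of a scaffold. The regions beyond 2500 kb on 3RHet have a summed ratio below 1 under both drivers, though not each tj region there does.

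The median ratio differed little between classes of length and density. Under nos the median ratio was 1.23 for regions up to 1 kb, 1.22 for over 1 to 2 kb, 1.25 for over 2 to 5 kb, 1.28 for over 5 to 10 kb and 1.22 for those over 10 kb. Under tj these medians ran from 0.983 to 1.04. By 4 classes of mean density with equal numbers of regions the medians lay between 1.23 and 1.29 under nos and between 0.987 and 1.05 under tj. The Spearman rho of the log2 ratio with length was 0.03 under nos and -0.04 under tj, and with mean density 0.06 and -0.06. The share of 2-fold differences was highest in regions over 1 to 2 kb. Of regions over 1 to 2 kb, with a median of 101 reads over both tj libraries, 6.99% were 2-fold away in either direction under tj, and of those over 10 kb 0 of 71 was. Regions up to 1 kb, with a median of 67 reads, had 3.17%.

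The Het regions were then set against the rest of the genome, to see where they differ. Differences of 2-fold, with both directions pooled, were less frequent on the Het scaffolds than outside them in each of the 5 classes of length. They were close in regions up to 1 kb under nos. Under nos the gap lay in 2-fold losses, and gains were not rarer on the Het scaffolds in most classes. Over 2 to 5 kb, 17 of 240 Het regions were 2-fold higher and 0 lower under nos, beside 82 and 182 of 1163 others. Up to 1 kb these were 4 and 0 of 44, beside 37 and 29 of 666. For regions over 2 to 5 kb, 1.29% of Het regions and 17.8% of the others were 2-fold away in either direction under tj, and 7.08% and 22.7% under nos. Up to 1 kb it was 3.17% and 7.41% under tj, and 9.09% and 9.91% under nos. The unplaced scaffolds were nearer to the Het scaffolds than the main arms were. There, 2.23% of regions were 2-fold higher and 2.03% lower under tj, and 5.37% higher and 1.40% lower under nos, beside 7.57% and 10.6% on the main arms under tj, and 6.84% and 15.7% under nos. In the class of regions over 2 to 5 kb, the median number of reads over both libraries was 258 for Het regions and 184 for those outside under tj. Under nos it was 252 and 157.

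Under nos the Het scaffolds lay above the chromosome arms, a difference that 1 library per group does not allow to be tested. The ratio of summed RPM was 1.27 on the Het scaffolds, against 0.970 (0.966 to 0.975) on the main arms and 0.822 (0.809 to 0.835) on chromosome 4, a small chromosome that is rich in H3K9me3. It was 1.28 (1.27 to 1.29) on the unplaced scaffolds U and Uextra, which also hold repeat-rich sequence, so higher RPM in nos piwi was not limited to the Het scaffolds. The mean density of the unplaced regions was 50.6 RPM per kb in nos piwi and 39.4 in nos white, and that of chromosome 4 was 31.7 and 38.6. RPM are shares of a library, so more reads in some regions leave fewer for the others. Under tj the same ratios were 0.996 on the Het scaffolds, 0.945 on the main arms, 1.004 on chromosome 4 and 0.997 on the unplaced scaffolds.

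**Figure D4:**
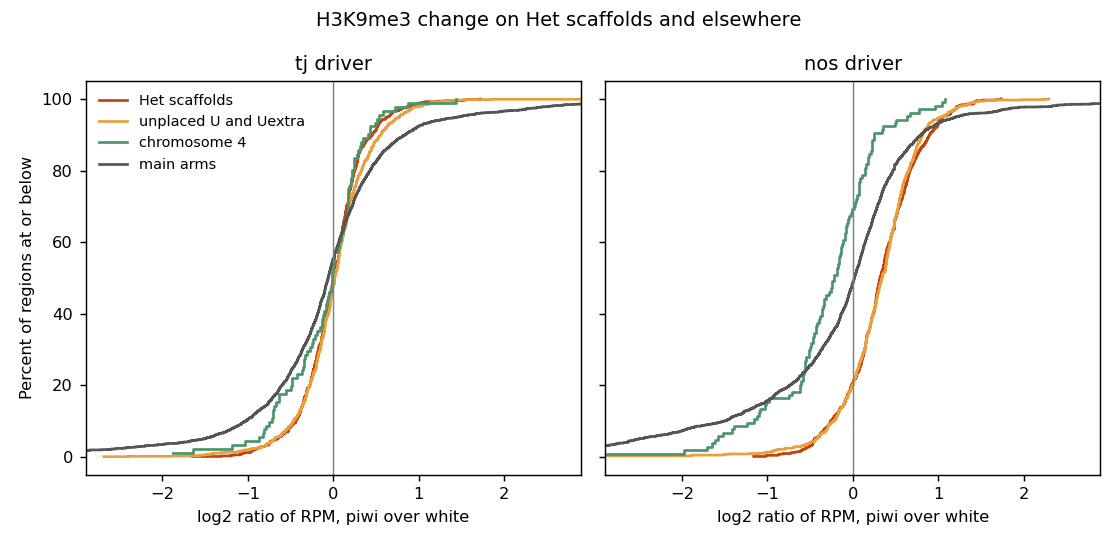
Percent of regions (vertical axis) at or below a log2 ratio of RPM in piwi over white knockdown (horizontal axis), for regions with at least 50 reads on the Het scaffolds, the unplaced scaffolds, chromosome 4 and the main arms. Under nos the curve of the Het scaffolds (median ratio 1.25) runs with that of the unplaced scaffolds (1.27), to the right of the main arms (1.01) and chromosome 4 (0.861).

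The lists of both drivers covered largely the same DNA. Of the 705 tj regions, 651 (92.3%) overlapped a nos region by at least 1 base, and 679 of the 726 nos regions (93.5%) overlapped a tj region. The shared bases came to 2853 kb, 89.5% of the tj and 92.4% of the nos Het length. The 54 tj and 47 nos regions without a counterpart were short, with a median of 1 kb in both lists and a median of 53 and 37 reads over both libraries.

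Regions with identical bounds in both lists, and at least 50 reads in each, allowed all 4 libraries to be set side by side for 210 regions. The lists were scaled separately. Between the control libraries the ratio of nos white over tj white had a median of 0.975, and its log2 values had an SD of 0.27 over regions. For nos piwi over nos white the median was 1.23 and the SD 0.40, and for tj piwi over tj white the median was 0.995 and the SD 0.34. A 2-fold difference in either direction was seen for 1 region between the controls, for 9 between nos piwi and nos white, all higher in nos piwi, and for 2 between tj piwi and tj white. Of all 619 nos Het regions 7.11% were 2-fold higher and 0.485% lower, and of the 647 under tj 1.24% in each direction. The 5 largest nos ratios named above belong to regions with other bounds under tj, so they are not among the 210. The controls differ in driver and are not replicates, so their spread is only a yardstick. Each SD includes counting error, and the nos piwi library was the shallowest.

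Of these 210 regions, 167 were higher in piwi knockdown under nos and 103 under tj, where 62.0% and 47.3% of all listed regions were. In the same 210, 92 were higher under both, which was not set against the number that the 2 counts alone would give. The nos ratio exceeded the tj ratio in 173. The median ratio over all listed regions was itself higher under nos, at 1.11 against 0.983 under tj. Identical bounds were sought on the Het scaffolds alone, so the 92 and the 173 have no share of all regions beside them. The log2 ratios of both drivers correlated across the 210 regions (Pearson r 0.46, Spearman rho 0.42). The regions are not independent and share mapping and sequence but no library. A single region, 1 of the 210, passed 2-fold under tj as well as nos, upwards in each case.

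**Figure D5:**
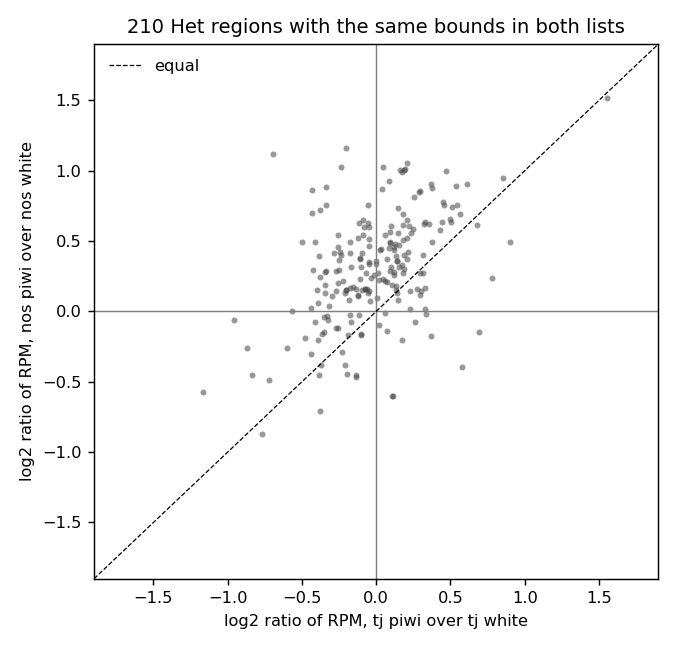
Log2 ratio of RPM under tj (horizontal axis) and under nos (vertical axis), piwi over white knockdown, for the 210 Het regions with the same bounds in both lists. Of the points, 173 lie above the dashed line of equal ratios.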

How the data were processed

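H3K9me3 ChIP-seq of ovaries was compared between piwi and white knockdown under 2 drivers, with 1 library in each group. Per the file headers, the list that the authors deposited for each driver holds the RPM of each region in piwi and in white knockdown, the fold between these and a p-value adjusted for multiple tests. Per the submitters' processing notes Bowtie2 2.0.0 and SICER 1.1 were used with build dm3. The sources used here do not state how regions were called or which reads were counted. The fold carries an offset, so ratios were taken from RPM. Every RPM was a whole number of reads within 1e-06 for 1 library total, taken as the smallest that fits. The intervals are exact (Clopper-Pearson) for reads recovered with these totals. Intervals cover counting error only, since reads lack molecular identifiers and need not be separate molecules. With 1 library per group no count model could be fitted and no p-value was computed.

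Regions needed 50 reads over both libraries for medians and counts, and 2-fold was the mark for counting. Named regions were the 5 largest and 5 smallest ratios where 1 of the libraries reached 100 reads, the 3 with most reads and the longest of each scaffold. Members and rules were chosen with earlier results of these data known. Alternatives were other read minimums, other centring, leaving out scaffolds, a stricter p-value and a stricter overlap. Interval and fold were tested on simulated data. Python 3.11.15, numpy 2.4.6, scipy 1.17.1, pandas 2.3.3 and matplotlib 3.10.9 were used.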

Additional observations from a re-analysis of the deposited data

Results flagged for a closer look

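The ratio of summed RPM in piwi over white knockdown lay on opposite sides of 1 under the drivers for the Het scaffolds as a whole, at 0.996 under tj and 1.27 under nos. The same held for 2RHet (0.963 under tj and 1.22 under nos), for XHet (0.794 under tj and 1.11 under nos) and for YHet (0.982 under tj and 1.28 under nos). Relative to the main arms the tj ratios of all Het scaffolds, 2RHet and YHet turned above 1, to 1.05, 1.02 and 1.04, and that of XHet was 0.840. With 1 library in each group these differences between drivers were not tested. The counting intervals of both YHet ratios and of the tj ratio of all Het scaffolds include 1.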

How the results depend on the processing

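No paired analysis was possible because each group had 1 library. Under nos the ratio of summed RPM over Het regions, 1.27, stayed above 1 under every alternative run: 1.24 relative to the regions outside the Het scaffolds, 1.31 relative to the main arms, 1.30 without 2RHet and 1.24 without 3RHet. Under tj the ratio of 0.996 turned above 1 in 3 of them, to 1.04 relative to the regions outside the Het scaffolds, 1.05 relative to the main arms and 1.02 without 2RHet, so it has no firm direction. The median log2 ratio under tj, 0.0054, became -0.011 with a minimum of 200 reads and 0.065 relative to the main arms. That under nos, 0.32, became 0.20 relative to the regions outside the Het scaffolds. Regions whose deposited adjusted p-value is below 0.01 are gains by construction, with medians of 0.52 under tj and 0.62 under nos and 0 regions 2-fold lower under both. Counts of 2-fold differences moved with the minimum on reads. With no minimum on reads, 19 tj regions were higher and 17 lower, and 78 nos regions were higher and 6 lower. With 200 reads, 1 tj region was higher and 1 lower, and 19 nos regions were higher and 0 lower. Relative to the regions outside the Het scaffolds 28 nos regions were 2-fold higher. No share of all regions is given beside these counts. The alternatives relative to the main arms and without 2RHet or 3RHet were chosen after seeing the data. Leaving out YHet changed no count.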
